A study of Macaca mulatta with 10 samples.

Results

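The coinhibitory receptors of T cells were examined in flow-sorted Tr1 cells of islet-transplanted rhesus macaques. They were taken as the 8 genes CTLA4, PDCD1, TIGIT, HAVCR2, CD226, CD96, BTLA and CD160, each found by its symbol among the 26484 genes of the count table. The sort marker LAG3 was left out of the list, and CD226, an activating receptor that competes with TIGIT for the same ligands, was included. Tr1 cells are regulatory CD4 T cells known for IL-10 secretion, and here they were sorted as CD4+CD49b+LAG-3+ cells from frozen blood mononuclear cells that had been thawed and rested overnight. All monkeys had streptozotocin-induced diabetes, an MHC class I-disparate and partly DRB-matched islet allograft, and short-term anti-CD40 antibody 2C10R4, rapamycin, soluble TNF receptor and anti-IL-6 receptor antibody. The 5 Cohort C monkeys also received infusions of apoptotic donor leukocytes (ADLs) around the transplant, and the 5 Cohort B monkeys did not, with 1 library per monkey. By the labels, cells were collected on the day of sacrifice, which followed graft rejection in Cohort B and came at a set end date in Cohort C, so ADL treatment, rejection and time of sampling cannot be told apart. The paper's own account departs from these labels in part, since some monkeys of the full Cohort B kept their grafts and 15CP1 was followed past that date, and when each library's blood was drawn was not settled here.

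Coinhibitory receptors restrain T cells after antigen recognition. CTLA4 takes the ligands CD80 and CD86 away from the costimulatory receptor CD28, and PDCD1, which encodes PD-1, recruits phosphatases to the T cell receptor. TIGIT and CD96 share ligands of the nectin family with CD226, which activates the cell when it wins them. BTLA and CD160 both bind TNFRSF14 (HVEM), and HAVCR2 encodes TIM-3, a receptor of chronically stimulated T cells that monocytes also carry. CTLA4 and TIGIT are typical of regulatory T cells, while CD96, CD226 and CD160 are also found on NK and CD8 T cells. In the macaque assembly T2T-MMU8v2.0, TIGIT, BTLA and CD96 lie on the same chromosome, with 20 protein-coding genes between TIGIT and BTLA and 10 between BTLA and CD96.

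The libraries differed widely in depth. Total counts ran from 6076 to 1392157 in Cohort B and from 66485 to 5895609 in Cohort C, and genes with a count from 465 to 10225 and from 891 to 15068. All 9 T cell marker genes were detected in 4 libraries, those of 13EP12, 13EP8, 13EP5 and 15CP1. In monkeys 14HP26, 14HP31, 14HP33 and 15CP4, none of the sort markers CD4, ITGA2 (CD49b) and LAG3 had a count. The label of these 4 libraries was thus not borne out by its defining genes. In 15CP6 and 14HP24 only CD4 of the sort markers was read, with 13 and 19 counts. ITGA2 reached only 37 counts, in 15CP1, so a 0 of ITGA2 or LAG3 in a shallow library says little. The mitochondrial rRNA-like gene MTRNR2L1 took 82.6% of the counts of 14HP33. LAG3 had 10 counts in 13EP12, 16 in 13EP5 and 12 in 15CP1, and none in the other 7 libraries. Levels are given as CPM, counts scaled to library size with edgeR's TMM factors, and 3 counts, the floor of a library, equaled 0.623 CPM in 15CP1 and 119 CPM in 14HP31.

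In these Tr1 libraries CTLA4 was the leading receptor, with 1093 counts summed over the libraries, and CD226 was next with 382. The order of the next 3 rested on the deepest library, 15CP1. CD96 had 212 counts, TIGIT 151 and BTLA 89, and without 15CP1 CD96 had 49, TIGIT 113 and BTLA 58, while CTLA4 (424) and CD226 (194) still led. HAVCR2 and CD160 were near the floor, with 11 and 5 counts, and PDCD1 had no count in any library. None of the 6 receptors with enough counts for a test passed it between the cohorts, given the spread between libraries. TIGIT had the largest fitted difference, higher in Cohort C by 3.29 on the log2 scale, without passing the test.

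**Figure D1:**
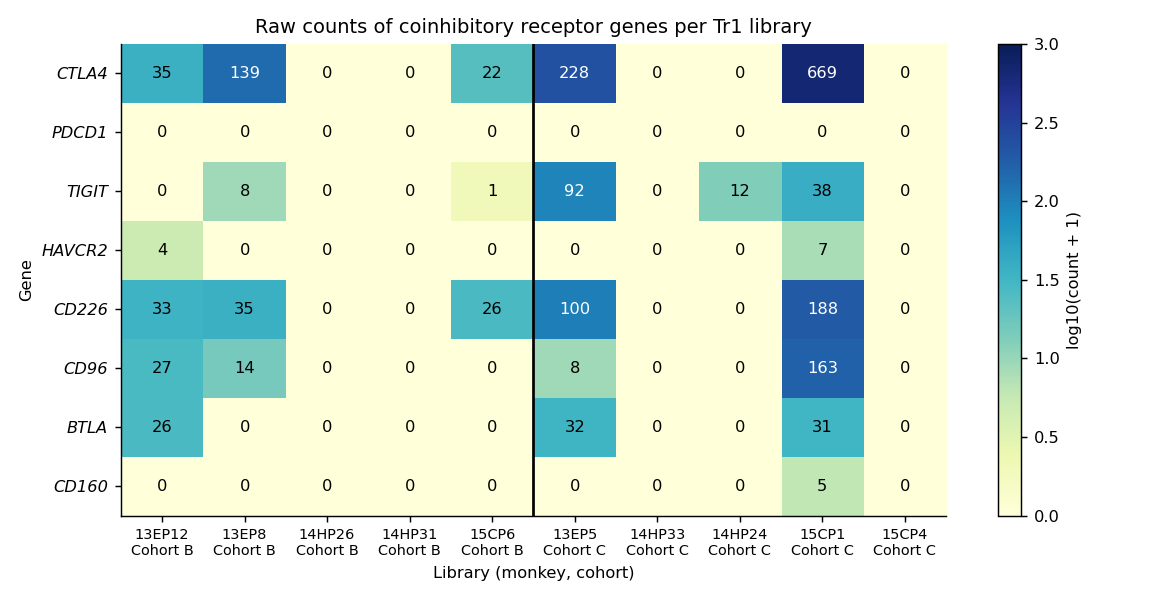
Raw counts of the 8 receptor genes (rows) in each of the 10 libraries (columns, Cohort B left and Cohort C right of the line), colored by log10(count + 1). Receptor counts sit in 6 libraries, PDCD1 is at 0 throughout, and 14HP26, 14HP31, 14HP33 and 15CP4 hold no receptor count.

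CTLA4 had 35 counts in 13EP12, 139 in 13EP8 and 22 in 15CP6 in Cohort B, and no count in 14HP26 and 14HP31. In Cohort C it had 228 counts in 13EP5 and 669 in 15CP1, and none in 14HP33, 14HP24 and 15CP4. The ranges of the cohorts overlapped, with 3 of 5 Cohort B and 2 of 5 Cohort C libraries holding any transcript. In CPM, the libraries with counts stood at 30.4 for 13EP12, 106 for 13EP8 and 48.7 for 15CP6, against 71.1 for 13EP5 and 139 for 15CP1. On the log2(CPM + 1) scale the mean level was 3.47 ± 3.23 (SD, n = 5) in Cohort B and 2.66 ± 3.66 (SD, n = 5) in Cohort C. The two-sided p of the exact permutation test was 0.921, where 0.00794 is the smallest that this design allows. The edgeR quasi-likelihood test gave a log2 fold change of 0.16 (95% interval -3.84 to 4.15, Benjamini-Hochberg adjusted p = 0.9998), of a sign opposite to the difference of those means, and the sign turned in 9 of 21 alternatives. In bulk libraries fewer cells with a transcript and less RNA per cell cannot be told apart.

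On the TMM scale, some zeros of CTLA4 lay where its level in the other libraries would have given counts. At its median of 71.1 CPM, taken over the 5 libraries with more than 3 counts, 12.1 counts would be expected in 14HP26, 12.3 in 14HP24 and 11.4 in 15CP4, but 4.99 in 14HP33 and 1.80 in 14HP31. The expected numbers cover counting error only. These libraries held few T cell transcripts of any kind, with 83, 56 and 2 counts over the 9 T cell markers in 14HP26, 14HP24 and 15CP4 against 1775 to 8721 in the 4 deepest libraries. Per 1000 T cell marker counts, CTLA4 had 19.7 counts in 13EP12, 73.1 in 13EP8 and 33.3 in 15CP6, beside 50.9 in 13EP5 and 76.7 in 15CP1. Among these libraries with CTLA4 counts, the Cohort C values fell within or just above the Cohort B range. The value was 0 in 14HP26 of Cohort B and in 14HP33 and 14HP24 of Cohort C. Those values rest on 83, 16 and 56 marker counts.

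CD28, the activating counterpart of CTLA4 and named here after its values were seen, was read in 14HP26 as well, with 42 counts beside 0 of CTLA4. CTLA4 made up 9.36% of the counts on both genes in 13EP12 (exact 95% binomial interval 6.61 to 12.8%), 27.7% in 13EP8 (23.8 to 31.8%) and 38.6% in 15CP6 (26.0 to 52.4%). In Cohort C it made up 24.4% in 13EP5 (21.7 to 27.3%) and 29.1% in 15CP1 (27.3 to 31.03%). In 14HP26 it made up 0 of the 42 counts (0 to 8.41%). The Cohort B libraries thus spread from 0 to 38.6%, and both Cohort C values lay inside that range. Intervals here and below cover counting error only, since reads copied by PCR are not independent molecules.

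PDCD1 was at 0 in all 10 libraries, including 15CP1 with 5895609 counts. The macaque reads were aligned to the human genome, and how well macaque PDCD1 reads map there was not tested, so the limits that follow hold for reads that could be mapped. At the floor of 3 counts its level was at most 0.623 CPM in 15CP1, 0.935 in 13EP5, 2.29 in 13EP8 and 2.60 in 13EP12. CTLA4, in counts that are not corrected for gene length, was at 139, 71.1, 106 and 30.4 CPM in the same 4 libraries. In the 4 shallowest libraries the floor was 17.3 CPM or more and in 14HP33 42.7 CPM, so that a PDCD1 level like that of TIGIT or CD96 elsewhere could have gone unseen. Its ligands were read, CD274 (PD-L1) with 72 counts in 13EP5, 95 in 15CP1 and 8 in 14HP26, and PDCD1LG2 (PD-L2) with 32 counts in 15CP1.

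**Figure D2:**
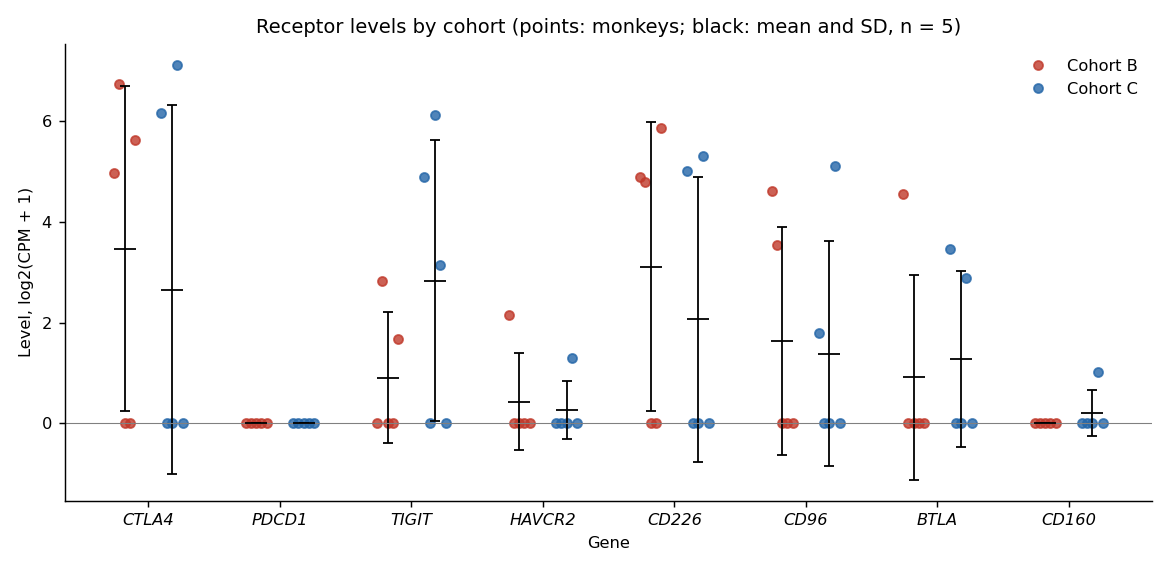
Level of each receptor as log2(CPM + 1), red for Cohort B and blue for Cohort C; points are monkeys, black bars the mean and SD of 5 monkeys. The points of the cohorts overlap for every receptor, and the mean of TIGIT is 2.84 in Cohort C and 0.90 in Cohort B.

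TIGIT, the inhibitory receptor of the family, was read in 3 Cohort C and 2 Cohort B libraries. It had 92 counts in 13EP5, 12 in 14HP24, 38 in 15CP1 and none in 14HP33 and 15CP4 of Cohort C. In Cohort B it had 8 counts in 13EP8, 1 in 15CP6 and none in 13EP12, 14HP26 and 14HP31. In CPM, the Cohort C libraries with counts stood at 28.7 (13EP5), 69.3 (14HP24, from its 12 counts) and 7.89 (15CP1). The highest Cohort B value was 6.12 in 13EP8, and the zeros of both cohorts overlapped. 15CP1 was close to 13EP8, at 6.45 against 5.75 CPM by library size alone. Per 1000 T cell marker counts, these 2 libraries had 4.36 and 4.21 TIGIT counts. The mean log2(CPM + 1) was 0.90 ± 1.30 for Cohort B and 2.84 ± 2.80 for Cohort C (SD, n = 5 each), and the two-sided exact permutation p was 0.206. The log2 fold change was 3.29 (95% interval -1.22 to 7.79, standard error 2.30) with an adjusted p of 0.529 in edgeR's quasi-likelihood test, and it stayed positive under all 20 alternatives that kept the gene, from 2.08 to 5.01. It was 2.18 without 14HP24 and 5.01 without 13EP8. In 13EP12, at the median TIGIT level of 18.3 CPM, 21.1 counts would be expected where 0 were found, and in 14HP24 3.17 where 12 were found. That median was taken over the 4 libraries with more than 3 TIGIT counts, 14HP24 among them, and left out the lower ones.

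CD226 had 33 counts in 13EP12, 35 in 13EP8 and 26 in 15CP6 (Cohort B), 100 in 13EP5 and 188 in 15CP1 (Cohort C), and none in the other 5 libraries. Its levels lay close together where it was read, at 28.6, 26.8 and 57.5 CPM in Cohort B and 31.2 and 39.0 CPM in Cohort C. The mean log2(CPM + 1) was 3.11 ± 2.87 for Cohort B and 2.07 ± 2.83 for Cohort C (SD, n = 5 each), with an exact permutation p of 0.683, and edgeR's quasi-likelihood test gave a log2 fold change of -0.67 (95% interval -4.71 to 3.36, adjusted p = 0.9998). Over the 4 libraries with at least 5000 genes detected, the log2 fold change was 0.18.

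CD96 varied more. It had 27 counts in 13EP12 and 14 in 13EP8 of Cohort B, 8 in 13EP5 and 163 in 15CP1 of Cohort C, and none elsewhere. In CPM these were 23.4 and 10.7 against 2.49 and 33.8, so that the lowest and the highest of the libraries with counts were both of Cohort C. The log2 fold change was 0.05 (95% interval -3.84 to 3.93, adjusted p = 0.9998 with edgeR's quasi-likelihood test, exact permutation p = 1), and its sign turned in 11 of 20 alternatives, down to -2.81 without 15CP1.

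The balance of TIGIT and its rival CD226 differed between monkeys of Cohort C by more than the counting intervals. TIGIT made up 47.9% of the TIGIT and CD226 counts in 13EP5 (exact 95% binomial interval 40.7 to 55.2%) and 16.8% in 15CP1 (12.2 to 22.3%), and all 12 such counts in 14HP24 (73.5 to 100%). In Cohort B it made up 18.6% in 13EP8 (8.39 to 33.4%), 3.70% in 15CP6 (0.0937 to 19.0%) and 0 of 33 counts in 13EP12, which allows up to 10.6%. The value of 15CP1 lay within the Cohort B range. CD96 made up 46.4% of the CD96 and CD226 counts in 15CP1 (41.1 to 51.8%), 7.41% in 13EP5 (3.25 to 14.1%), 45.0% in 13EP12 (32.1 to 58.4%), 28.6% in 13EP8 (16.6 to 43.3%) and 0 of 26 counts in 15CP6 (0 to 13.2%). The 2 deepest Cohort C libraries thus differed from each other in opposite ways, 13EP5 having relatively more TIGIT and 15CP1 relatively more CD96.

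**Figure D3:**
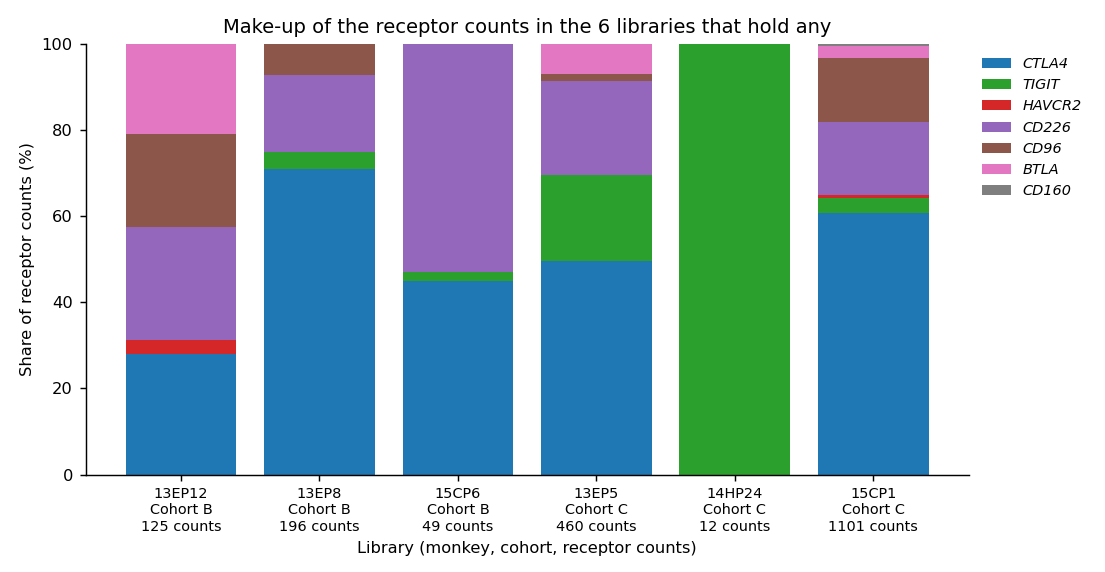
Share of each gene in the receptor counts of the 6 libraries that hold any (bars add to 100%), with the number of receptor counts under each bar. CTLA4 is the largest share in 13EP12, 13EP8, 13EP5 and 15CP1, CD226 in 15CP6, and the 12 counts of 14HP24 are all TIGIT.

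BTLA had 26 counts in 13EP12, the only Cohort B library with any, and 32 in 13EP5 and 31 in 15CP1 of Cohort C. In CPM these were 22.6 against 9.98 and 6.43, so the highest level was that of the Cohort B library. In 13EP8, 13.0 counts would be expected at the median of these levels and none was found. The log2 fold change was -0.43 (95% interval -4.11 to 3.25, adjusted p = 0.9998 with edgeR's quasi-likelihood test, exact permutation p = 1). Without 13EP12 it was 5.28, but that fit leaves no BTLA count in Cohort B. Its sign and size thus follow from the omission. CD160, which shares the ligand of BTLA, had 5 counts, all in 15CP1, and with a sum under 10 it was not tested. Their ligand TNFRSF14, named after its values were seen, had no count in any library, and its mapping to the human genome was likewise not tested.

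HAVCR2 had 4 counts in 13EP12 and 7 in 15CP1, which is 3.47 and 1.45 CPM, and none in the other 8 libraries. At their median 7.90 counts would be expected in 13EP5 and 3.22 in 13EP8. The log2 fold change was -0.82 (95% interval -4.00 to 2.36, adjusted p = 0.9998 with edgeR's quasi-likelihood test, exact permutation p = 1), from counts near the floor.

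Libraries that held receptors also held transcripts of other blood cells. The 8 monocyte markers summed to 0 to 1568 counts in Cohort B and 0 to 6693 in Cohort C. CD14 had 45 counts in 13EP12 and 295 in 15CP1, the libraries with HAVCR2, and also 28 in 13EP8 and 36 in 13EP5, which had no HAVCR2 count. The 10 CD8 and NK cell markers summed to 0 to 398 counts in Cohort B libraries and 0 to 1116 in those of Cohort C, and the defining NK gene NCR1 was at 0 in all libraries. KLRF1, another NK gene, had 63 counts in 15CP1, the library with the most CD96 and the only one with CD160, and 0 in the others. The sum of the 10 markers was 820 counts in 15CP1 and 1116 in 13EP5, which had 8 counts of CD96 and none of CD160. CD8A had 77 counts in 13EP12, 14 in 13EP8, 39 in 13EP5 and 88 in 15CP1. These were the libraries with CD96, and CD8A was at 0 in the others. The 8 B cell markers, of interest because B cells carry BTLA, ranged from 1 to 122 counts in sum in Cohort B and from 0 to 499 in Cohort C, and the libraries with BTLA had 65 (13EP12), 169 (13EP5) and 499 (15CP1). The defining B cell gene MS4A1 had 43, 0 and 199 counts in the same 3 libraries. In 13EP8, which had no BTLA count, the B cell markers summed to 122 counts and MS4A1 had 96. The part of these cells in the receptor levels was not tested.

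Read as a group, 6 of the 8 receptors passed the minimum of 10 counts summed over the libraries, and of these 3 had a positive and 3 a negative log2 fold change, Cohort C over Cohort B. Their median was -0.19, beside 0.16 over all 14168 genes tested. With an unadjusted p below 0.01 and a change of 1.5-fold or more required, 0 of the 6 were called by edgeR, beside 6.43% of all genes (1.07% were higher in Cohort C and 5.36% lower). At an unadjusted p under 0.05 it was again 0 of the 6, beside 20.6% of all genes, and at a Benjamini-Hochberg adjusted p under 0.05 there were 0 receptors and 0.0% of all genes. By the exact permutation test 0 of the 6 had an unadjusted p under 0.05, beside 0.24% of all genes, and edgeR's exact test and DESeq2 also called 0 receptors.

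**Figure D4:**
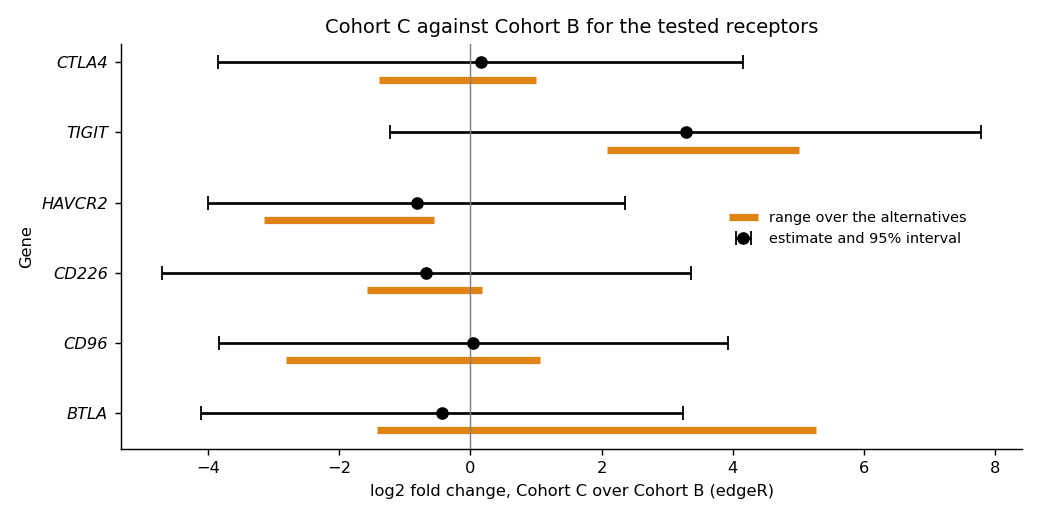
Log2 fold change of Cohort C over Cohort B for the 6 receptors tested (edgeR; black point and line, estimate and 95% interval), with the range over the alternatives in orange. Each interval spans 0, and the range of the alternatives lies on 1 side of 0 for TIGIT and HAVCR2 only. The range of HAVCR2 holds no fit without 13EP12 or without 15CP1, the only libraries with its counts.

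Over the 6 libraries with receptor counts, the sum of the 8 genes was 70.4 per 1000 T cell marker counts in 13EP12, 103 in 13EP8 and 74.1 in 15CP6 of Cohort B, and 103 in 13EP5, 126 in 15CP1 and 214 in 14HP24 of Cohort C. The value of 14HP24 rests on 12 receptor and 56 marker counts. It was 0 in 14HP26 of Cohort B and 14HP33 of Cohort C, on 83 and 16 marker counts. Monkeys 14HP31 and 15CP4 had too few marker counts for a value. As a share of the receptor counts, CTLA4 held 28.0% in 13EP12 (exact 95% binomial interval 20.3 to 36.7%), 70.9% in 13EP8 (64.0 to 77.2%), 44.9% in 15CP6 (30.7 to 59.8%), 49.6% in 13EP5 (44.9 to 54.2%) and 60.8% in 15CP1 (57.8 to 63.7%). The make-up in 13EP12, with CD226, CD96 and BTLA at 26.4%, 21.6% and 20.8% of its receptor counts, was the most even.

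Levels between genes can be compared per length in the FPKM values deposited by the authors, where both genes are listed above 0. CTLA4 was the highest receptor in each of the 5 libraries in which any was listed above 0, at 8.68 FPKM in 13EP12, 66.7 in 13EP8, 16.9 in 15CP6, 215 in 13EP5 and 51.2 in 15CP1. Next came BTLA in 13EP12 (1.70), CD226 in 13EP8 (1.76) and 15CP1 (1.73), and TIGIT in 13EP5 (16.3, followed by CD226 at 8.73). In 15CP6 no receptor but CTLA4 was listed above 0, though CD226 had 26 counts there beside 22 of CTLA4. Of the 25 receptor values with at least 1 count, 11 were listed at 0 FPKM, or 44.0%, beside 28.9% over all genes in both tables. Among them were 33 counts of CD226 and 27 of CD96 in 13EP12 and 32 of BTLA in 13EP5. An FPKM of 0 is therefore not read here as absence, and the order in 13EP12 and 15CP6 rests in part on such zeros.

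The FPKM values also set the order of the monkeys differently. By CPM, CTLA4 was highest in 15CP1 and next in 13EP8, and by FPKM it was highest in 13EP5. Across 4564 genes with at least 100 counts in both libraries, the FPKM per CPM of 13EP5 was 6.79 times that of 15CP1 in the median. Limma's test on log2(FPKM + 1) took in 10307 genes, those averaging 1 FPKM or more. The log2 fold change was -0.01 for CTLA4 (95% interval -3.78 to 3.76, adjusted p = 0.9995 in limma), 0.92 for TIGIT (-1.53 to 3.37, adjusted p = 0.992 in limma) and 0.65 for CD226 (-1.73 to 3.03, adjusted p = 0.992). The sign of CD226 was opposite to that in the counts. The other 5 receptors had too low a mean, and 0.0% of all genes were called at an adjusted p under 0.05 with over a 1.4-fold change (0.281% at an unadjusted p under 0.05).

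**Figure D5:**
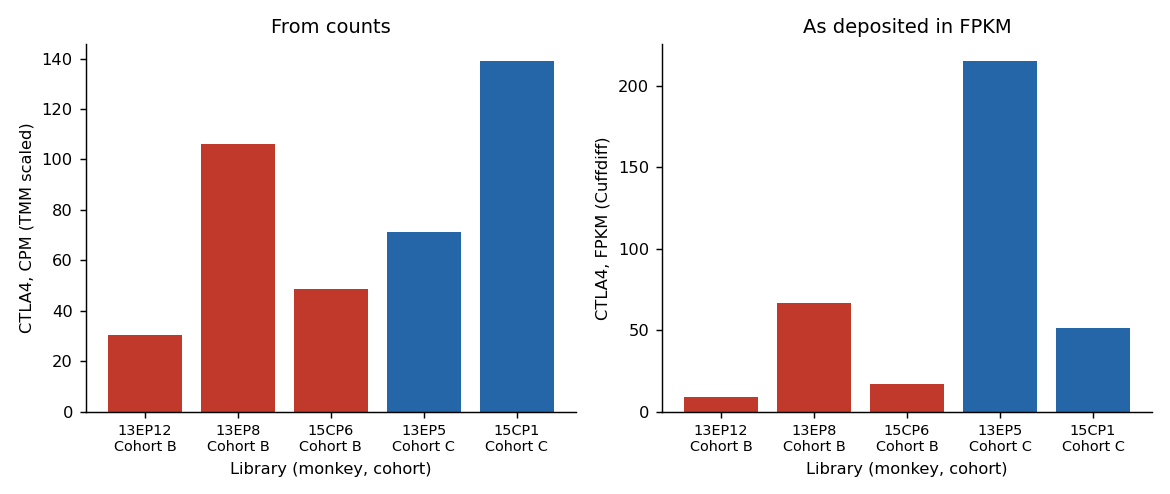
CTLA4 in the 5 libraries that hold it, as TMM-scaled CPM from the counts (left) and as deposited FPKM (right); bars start at 0, red for Cohort B and blue for Cohort C. The highest bar is 15CP1 at 139 CPM on the left and 13EP5 at 215 FPKM on the right.

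Among 34 ligands, related receptors and signaling partners of these receptors, 32 had enough counts to be tested, with 17 log2 fold changes positive and 15 negative and a median of 0.06. Of the 10 ligands tested 2 were positive and 8 negative, of the 9 other receptors 7 and 2, and of the 13 signaling genes 8 and 5. Of all 14168 genes tested, 7586 were positive and 6582 negative. Of the 32 a single gene was called, beside 6.43% of all genes (5.36% lower in Cohort C). It was PVRL3 (nectin-3, a ligand of the TIGIT family), lower in Cohort C with a log2 fold change of -7.36 (with a standard error of 2.85 and an adjusted p of 0.141 in the edgeR test), and 97.7% of its counts came from 15CP6. Without 15CP6, 0 partner genes were called, and the exact permutation p of PVRL3 over all libraries was 1. In that library 126 counts of PVRL3 stood beside 189 of PVR, the main TIGIT ligand. The phosphatases PTPN6 (SHP-1) and PTPN11 (SHP-2), of the kind that PD-1 recruits, had log2 fold changes of -0.10 and 0.34. They were read in all 5 libraries that held CTLA4. These phosphatases, PVR and the PDCD1 ligands are named after their values were seen.

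Each receptor with more than 3 counts in at least 4 libraries was matched to the genes of the most similar pattern, by the root mean square difference of log2(CPM + 1) after centring over the 10 libraries, among 7240 genes so expressed. Nearest to CTLA4 were DIS3L2 (0.21), INPP5F (0.28) and FBXL5 (0.30), to CD226 ATP6V1H (0.13), TPGS2 (0.20) and GSK3A (0.21), and to CD96 PI16 (0.24), GLB1 (0.25) and MPLKIP (0.26). TIGIT had no gene as close, the nearest being DGCR14 (0.52), PLAUR (0.55) and HAUS5 (0.60). The median difference over all genes compared was 2.22 for CTLA4 and 2.88 for TIGIT. CTLA4 and CD226 were 0.79 apart, while TIGIT was 3.11 from CTLA4, 2.87 from CD226 and 2.73 from CD96. These distances share the depth of the libraries and the zeros of the shallow ones.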

How the data were processed

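Sorted Tr1 cells of 10 monkeys, 5 in each cohort, gave 1 paired-end RNA library per monkey. Per the submitters' processing notes and the paper's methods, the authors aligned macaque reads with HISAT2 2.0.2 to a human genome, hg38. The authors deposited raw counts per gene symbol, for which the counting options are not given in the sources used here, and FPKM values per gene from Cuffdiff 2.2.1. Reads that match the human sequence poorly can be missed, which affects genes unequally.

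From the counts, cohorts were compared by the quasi-likelihood test of edgeR 4.0.16 (R 4.3.3) after TMM normalization, over genes with at least 10 counts in all. Calls were made at an unadjusted p under 0.01 and 1.5-fold, as in the paper's methods, and at a Benjamini-Hochberg adjusted p under 0.05. Standard errors were derived from each fold change and its F statistic. A two-sided exact permutation test of log2(CPM + 1) used all 252 assignments for every gene, with p adjusted over all genes. FPKM values were tested with limma 3.58.1 on log2(FPKM + 1), which understates changes of low genes. Intervals of shares are Clopper-Pearson (scipy 1.17.1). The fits were tested on simulated data, where the edgeR test recovered most of the strongly changed genes at low dispersion and none at the dispersion of these libraries, so that a gene not called may still differ.

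The receptors, the partner list and the markers were chosen with earlier results of these data known. Named genes were the receptors, partner genes called (and otherwise the 3 of smallest p), and the 3 genes nearest to each receptor. Alternatives were DESeq2 1.42.0, edgeR's exact test, other normalizations and filters, the labels' replicate numbers as a block, an index suffix in the labels as a covariate, and leaving out each library, with 2 restrictions to deep libraries chosen after seeing the data. Same-numbered libraries come from different monkeys, and each is 1 animal. With 1 library per animal, p-values measure the spread between animals and between libraries together, including their depth.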

Additional observations from a re-analysis of the deposited data

Results flagged for a closer look

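Of the 13 sets of 5 libraries in which a receptor had any count, 4 held a monkey far from the others of its cohort. In Cohort B these were monkey 13EP12 for BTLA, at a log2(CPM + 1) of 4.56, and again 13EP12 for HAVCR2, at 2.16. In Cohort C they were monkey 15CP1 for HAVCR2, at 1.29, and for CD160, at 1.03. In each of the 4 sets the other 4 libraries were at 0, where a single library with counts always stands apart by the whole range, so the rate of about 1 in 20 that chance gives for spread values does not apply. The counts behind them were 26 for BTLA, 4 and 7 for HAVCR2 and 5 for CD160.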

How the results depend on the processing

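No receptor was called under any of the 21 alternatives to the edgeR test, nor by the exact permutation test under its 14, where the smallest unadjusted p of a receptor was 0.0952, for TIGIT without Cohort C monkey 14HP33 or 15CP4. TIGIT stayed positive in all 20 alternatives that kept it, and HAVCR2 stayed negative in all 18 that kept it. The counts of HAVCR2 lay in 13EP12 (4) and 15CP1 (7) only, and leaving out either library took it under the minimum of 10 counts. The alternatives thus cannot show whether the sign of HAVCR2 rests on a single library. The sign of CTLA4 turned with library size only (-0.083), filterByExpr (-0.30), the index suffix as a covariate (-0.27) and the replicate block (-1.39). The sign of CD96 turned with DESeq2 (-0.70), library size only (-0.28), RLE normalization (-0.42), the replicate block (-1.53), the index suffix (-1.95) and in the libraries with at least 5000 genes (-0.11) or 150000 counts (-0.013). BTLA turned with the index suffix (0.022) and CD226 in the libraries with at least 5000 genes (0.18). With each library left out in turn, log2 fold changes ran from -1.04 to 1.002 for CTLA4, -2.81 to 1.06 for CD96 and -1.42 to 5.28 for BTLA. The 5.28 came without 13EP12, the only Cohort B library with BTLA counts.

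Over all genes, the 911 called became 341 with edgeR's exact test, 69 with DESeq2, 1525 with RLE normalization, 10 with filterByExpr, 98 with the index suffix, 0 with the replicate block, 117 and 143 in the libraries with at least 5000 genes or 150000 counts, and 76 to 695 with a library left out (76 without 13EP5, 143 without 15CP1, 515 without 14HP33, 567 without 14HP24, 583 without 13EP8, 587 without 15CP6 and 597 without 14HP26). At an adjusted p under 0.05 there were 2 genes with DESeq2, 1 in either set of deep libraries and 0 to 1 with a library left out. The 1 partner gene called became 2 with library size only, 3 with RLE normalization, 0 with every gene of at least 1 count, filterByExpr, the MTRNR2L genes left out, the replicate block, the index suffix or the libraries with at least 5000 genes, and 0 to 1 with a library left out. The cause of these changes was not tested. Deviations of same-numbered libraries correlated at -0.43 to 0.38, and none correlated best with its own number. These values share the unlike depth of the libraries, so they cannot decide whether the numbers mark a pairing. With the index suffix only 1 Cohort B and 2 Cohort C libraries are marked, too few for values within them. Depth limits every value: in the 4 shallowest libraries a receptor under 17.3 CPM was at or under the floor.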

Other observations

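In edgeR's quasi-likelihood test 5 of the 32 partner genes had an unadjusted p below 0.05, beside 20.6% of all genes, and none an adjusted p under 0.05. Beside PVRL3, these were the CTLA4 ligand CD80 (log2 fold change -5.05) and, of other inhibitory receptors, CD101 (5.91), CD200R1 (5.05) and LAIR1 (3.61), named here after their values were seen. CD80 had 40 counts in 14HP26 and 14 in 14HP31, libraries without a sort marker, and 80 in 15CP1. CD200R1, which restrains myeloid and T cells on contact with CD200, had 114 counts in 13EP5, 27 in 14HP24 and 85 in 15CP1, the same 3 Cohort C libraries that held TIGIT, beside 3 in 13EP8 and 1 in 15CP6 of Cohort B. For CD101 95.1% of the counts came from 15CP1, and the 13 counts of LAIR1 were all in 13EP5. By the exact permutation test the two-sided p values were 0.365 for CD80, 0.167 for CD200R1, 0.444 for CD101 and 1 for LAIR1 (n = 5 per cohort, unadjusted).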
